A study of Mus musculus with 4 samples.

Results

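The 45 genes described here encode the fibrillar collagens and the rest of the interstitial matrix of the heart, with the enzymes and the receptor that act on them. They were taken by symbol from the gene list of the deposited count matrices, where each of the 45 matched exactly 1 of 27998 gene rows. The values were UMI counts (unique molecular identifiers, each standing for 1 captured RNA molecule) from single nuclei of the mouse right ventricle (RV) at P21. All mice were wild-type C57/BL6J. The RVVO mice had received an abdominal aorta to inferior vena cava fistula at P7, which loads the RV with volume, and the sham mice had the same operation at P7 without the puncture. Each group had 2 libraries, and the sources do not state if the nuclei of a library are those of a lone mouse or of a pool, so the spread between libraries may be partly technical.

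The 4 libraries held 53090 barcodes, of which 43210 were kept as nuclei, with a median of 2156 to 4651 UMIs per nucleus kept. Both RVVO libraries were deeper per nucleus than both sham libraries. Both sham libraries carried Xist (1475 and 1486 CPM, the counts of a gene scaled to a common library total) and almost no Ddx3y or Uty, and both RVVO libraries the reverse. In every comparison below the surgery coincides with this split by sex, and their effects cannot be told apart. Only 276 barcode sequences occurred in more than 1 library. Nuclei were clustered without the 45 genes and named from other marker genes, so that a lineage name below means nuclei that were like that cell type by those markers. This gave 10 lineages with 34600 nuclei, and left 8610 nuclei unnamed because they carried markers of several classes, scored low or were shallow. The unnamed nuclei held 32.0% of the UMIs of the 45 genes (17.3% in sham 2 to 44.9% in RVVO 1), which enter no lineage value below.

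Interstitial matrix is built in layers. Type I and type III collagen form the load-bearing fibrils, type V collagen starts them, and collagens such as type XIV sit on their surface. Elastin and the fibrillins form elastic fibres and microfibrils, small proteoglycans such as decorin space the fibrils, lysyl oxidases crosslink them, and prolyl hydroxylases make the collagen helix stable inside the cell. In the heart the cardiac fibroblast is the main source of this matrix, and it makes more of it when the wall is loaded or injured.

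In fibroblast nuclei, which carried their markers at a summed 4268 to 4709 CPM against 77.1 to 97.2 CPM in cardiomyocyte (CM) nuclei, 26 of the 45 genes had their highest mean level of any lineage, 20 of them in all 4 libraries. The other 19 genes peaked elsewhere, 7 in glial cells, 5 in epicardial cells, 3 in lymphatic endothelial cells, 2 in smooth muscle cells, and 1 each in endocardial cells (Eln) and pericytes (P4ha1). The fibroblast markers also summed to 2379 to 3052 CPM in epicardial, 1994 to 2320 CPM in glial and 1257 to 1434 CPM in pericyte nuclei. Pdgfra was at 28.4, 13.9 and 18.2 CPM in these, against 639 CPM in fibroblasts. Abca8a was higher in glial nuclei (1897 CPM) than in fibroblasts (1432 CPM). The lineage levels are a description with no test. Droplet data carry free RNA, and CM markers summed to 11819 to 19147 CPM in the fibroblast nuclei, against 66911 to 76220 CPM in CM nuclei. The 45 genes together made up 11105 to 14168 CPM in fibroblasts and 729 to 1086 CPM in CMs.

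**Figure D1:**
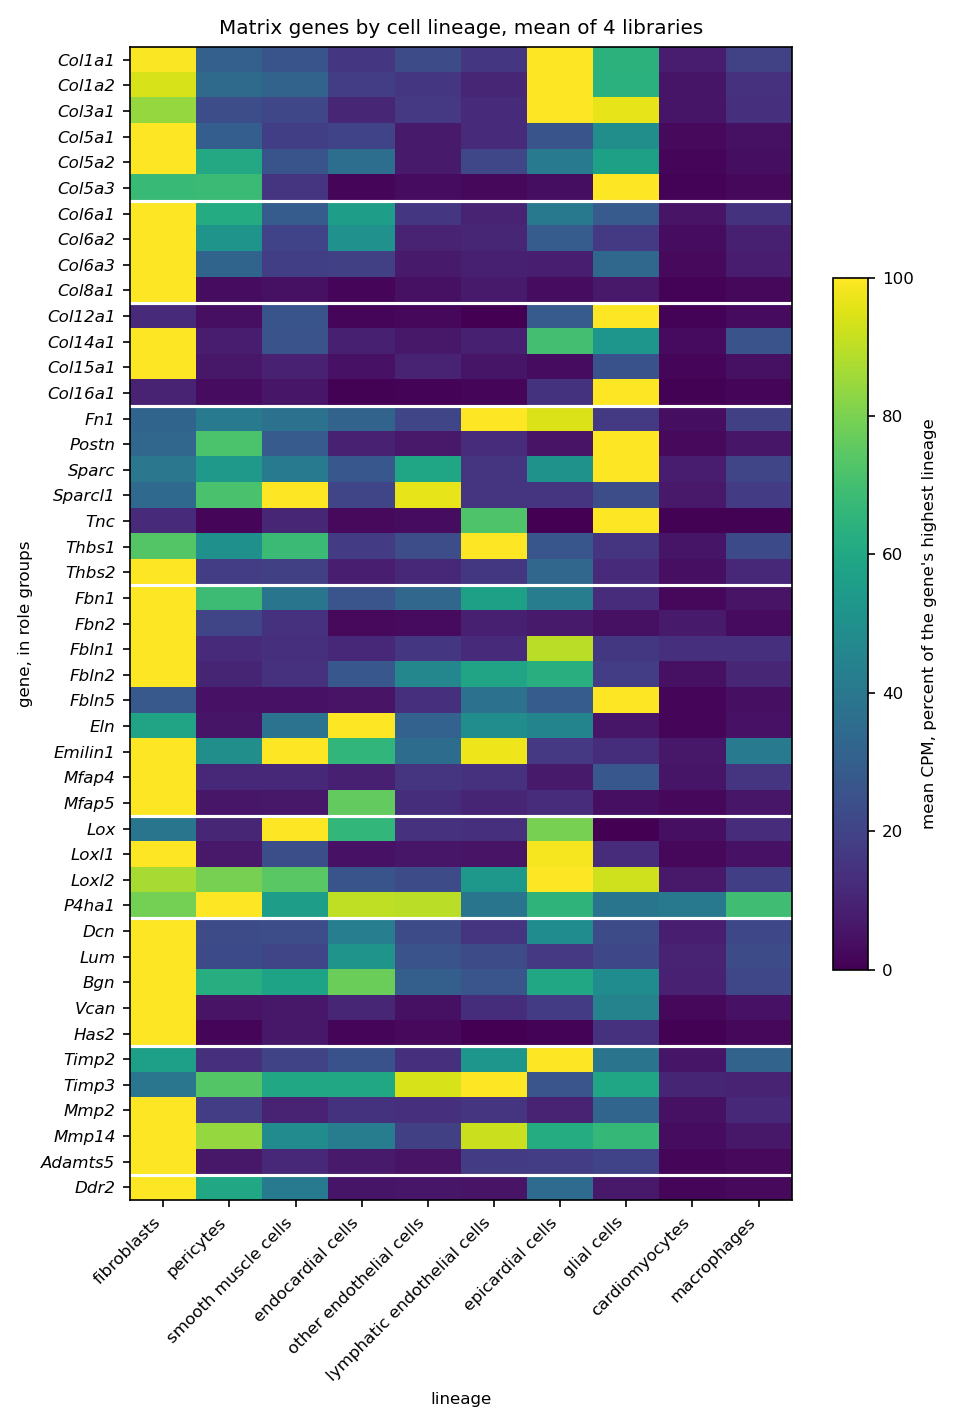
Mean level of each of the 45 genes (rows, in role groups parted by white lines) in each of the 10 lineages (columns), as percent of the gene's highest lineage, over 4 libraries. The fibroblast column is brightest for 26 genes, while Col5a3, Col12a1, Col16a1, Postn, Sparc, Tnc and Fbln5 are brightest in glial cells and Eln in endocardial cells.

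The genes most particular in level to fibroblasts were Has2, Col8a1 and Vcan. Has2, which makes hyaluronan, was 17 times the level of all other nuclei (32.2, 37.5, 21.9 and 40.7 CPM in sham 1, sham 2, RVVO 1 and RVVO 2). Col8a1, a network collagen, was 11.6 times the other nuclei and Vcan, a large hyaluronan-binding proteoglycan, 10.6 times. The 2 sham and 2 RVVO values of Vcan were 166, 180, 201 and 213 CPM. Adamts5, a protease that cleaves versican, and Col15a1 followed at 10.4 and 10.2 times. Ddr2, a receptor tyrosine kinase that binds fibrillar collagen, was at 299 to 345 CPM in fibroblasts and next highest in pericytes.

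The main fibril genes were shared more widely. Col1a1 had mean levels of 265 CPM in epicardial cells and 263 CPM in fibroblasts, and Col1a2 of 449 and 421 CPM. Epicardial cells are the mesothelial cover of the heart and a developmental source of fibroblasts. Col3a1 was at 1367 CPM in epicardial cells, 1315 CPM in glial cells and 1149 CPM in fibroblasts. The values of neighbouring lineages overlapped. For Col1a1 and Col1a2 epicardial cells were above fibroblasts in some libraries and not in others, while Col3a1 was higher in glial cells than in fibroblasts in all 4 libraries. Type V collagen differed by chain. Col5a1 (325 CPM) and Col5a2 (601 CPM) were highest in fibroblasts in all 4 libraries, while Col5a3 was highest in glial cells (345, 307, 296 and 218 CPM).

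Glial cells, the Schwann-lineage cells of cardiac nerves (217 nuclei), held a matrix profile of their own. Sparc, a collagen-binding glycoprotein, reached 1004, 841, 1325 and 1448 CPM there, 4.09 times the other nuclei, and Col3a1 4.59 times. Tnc, a matricellular protein of remodelling tissue, was at 170 CPM in glial cells and 123 CPM in lymphatic endothelial cells, against 21.2 CPM or less in every other named lineage. Its ranges in these 2 small lineages (217 and 324 nuclei) overlapped, though glial cells were higher in all 4 libraries. Col16a1 (201 CPM) and Col12a1 (61.3 CPM), which belong to the fibril-associated collagens, were 6.74 and 3.51 times their next lineage, but rested on 97 and 26 UMIs. Postn, a matricellular protein used as a mark of activated fibroblasts, was at 365 CPM in glial cells and 262 CPM in pericytes. It was at 134, 82.1, 107 and 156 CPM in fibroblasts.

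The mural, endothelial and other lineages each had their own leading genes. In pericytes, which wrap capillaries, these were Postn (7.18 times the other nuclei), Col5a3 (4.97 times) and Mmp14, a membrane-bound collagenase (3.07 times). In smooth muscle cells they were Sparcl1 (3.19 times), Eln (1.80 times) and Sparc (1.62 times). Lox, the first lysyl oxidase, also had its highest mean there (17.1 CPM), from 19 UMIs. Endothelial cells other than endocardial and lymphatic ones led with Sparcl1 (4.20 times), Timp3, an inhibitor of metalloproteinases (3.24 times), and Sparc (2.83 times). Lymphatic endothelial cells led with Fn1, fibronectin (5.95 times), Timp2 (2.87 times) and Timp3 (2.73 times). Epicardial cells led with Timp2 (6.08 times), Loxl1 (5.51 times) and Fn1 (5.19 times). Macrophages had only Timp2 clearly above the other nuclei (1.78 times), ahead of P4ha1 (1.15 times) and Fn1 (1.05 times). CMs were below the other nuclei even for their leading genes P4ha1 (0.514 times), Fbln1 (0.385 times) and Lum (0.265 times).

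Eln encodes elastin, the core of the elastic fibre. It was at 763, 1130, 771 and 1722 CPM in endocardial cells, the inner lining of the chambers, 5.21 times the other nuclei. Mfap5 (3.98 times) and Bgn (2.55 times) came next in this lineage. The fibroblast marker list summed to 1916 to 2201 CPM in endocardial cells. Most of that sum was Cdh11 (1479 CPM, against 53.1 CPM in fibroblasts), while Pdgfra, the defining fibroblast marker, was at 24.6 CPM against 639 CPM in fibroblasts. Among the other endothelial cells Eln was uneven. A sub-cluster of 163 nuclei led by Bmx and Gja5, a connexin of arterial endothelium, had Eln at 4140, 3681, 8587 and 5068 CPM. Another, of 492 nuclei led by Kirrel3 and Rasa4, had 1906, 2317, 2331 and 2657 CPM. The largest endothelial sub-cluster, with 2391 nuclei, had 78.1 to 101 CPM.

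In epicardial cells several members followed the replicate number and not the surgery. Fn1 was at 109 and 90.7 CPM in sham 1 and RVVO 1, and at 552 and 548 CPM in sham 2 and RVVO 2. Adamts5 showed the same split (28.8 and 40.7 against 139 and 169 CPM). The lineage was made of different sub-clusters in these libraries. A sub-cluster of 507 nuclei led by Pcdh15 and Muc16 was in every library (81, 138, 99 and 189 nuclei) and had Fn1 at 88.6 CPM. A second sub-cluster, led by Bmpr1b, had 1, 165, 7 and 133 nuclei in the 4 libraries and Fn1 at 837 CPM. The third, led by Nlgn1, had 0, 105, 0 and 181 nuclei, with Fn1 at 756 CPM and Dcn at 1775 CPM. Within the Pcdh15 sub-cluster Fn1 was at 113, 56.6, 68.0 and 116 CPM, without the split by replicate number. Col1a1 (149, 193, 291 and 191 CPM) also lacked it there. Adamts5 kept only the order in this sub-cluster, with a far smaller gap. It was at 28.3 and 39.8 CPM in sham 1 and RVVO 1 (8 and 17 UMIs). In sham 2 and RVVO 2 it was at 49.5 and 46.4 CPM (21 and 26 UMIs). Col3a1 was also split there by replicate number (609 and 1163 against 1625 and 1380 CPM). Each group held 1 library of each kind of mixture, and the unlike mixtures lay within the groups. The part of the mixtures in these splits was not tested.

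Fibroblasts were 8.96% and 13.9% of the nuclei kept in the sham libraries and 14.0% and 14.8% in the RVVO libraries (11.5% ± 3.52 against 14.4% ± 0.549, mean ± SD, n = 2 each). The difference of 2.94 percentage points gave p = 0.333 in an exact two-sided permutation test, which is the smallest p that 2 libraries against 2 can give. Without sham 1 the difference was 0.452 points.

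Within the 5555 fibroblast nuclei 6 sub-clusters were found. Some of the matrix genes, which had no part in the clustering, differed in level between them, while others, such as Dcn and Col1a1, overlapped. These levels are a description. Sub-cluster 1 (2148 nuclei, led by Gpm6b and Lvrn) had the highest Col5a3 (271, 304, 235 and 222 CPM) and Col15a1 (595 CPM). Sub-cluster 2 (1450 nuclei), led by Pi16 and Gfpt2, had the highest Mfap5 (692, 592, 699 and 665 CPM), Fbn1 (880 CPM), Vcan (352 CPM) and Has2 (95.4 CPM, against 26.9 CPM or less in the others), each above every other sub-cluster in every library. Pi16 marks an adventitial type of fibroblast found in many organs. Sub-cluster 3 (805 nuclei, led by Fmo2 and Vit) had the highest Timp3 (419 CPM), and sub-cluster 4 (698 nuclei) was the shallowest, at a median of 1445 UMIs.

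Sub-cluster 5 (381 nuclei, led by Nkain2 and Sntg1) stood out for Fbn2, the fibrillin of developing tissue, at 1260, 1319, 1041 and 1015 CPM. Its next level was 385 CPM in sub-cluster 3, and the lowest 43.8 CPM in sub-cluster 6. Sub-cluster 6, led by Itgbl1 and Nox4, had only 73 nuclei. It was highest for Col8a1 (932, 1274, 1921 and 1628 CPM), Mfap4 (220 CPM) and Eln (2056, 2846, 1565 and 3024 CPM). Its Col5a3, at 40.5 CPM, was the lowest. Sub-cluster 1 made up 34.9% and 35.1% of sham fibroblasts and 48.3% and 38.5% of RVVO fibroblasts. Sub-cluster 2 made up 31.3% and 26.5% against 17.8% and 27.8%.

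**Figure D2:**
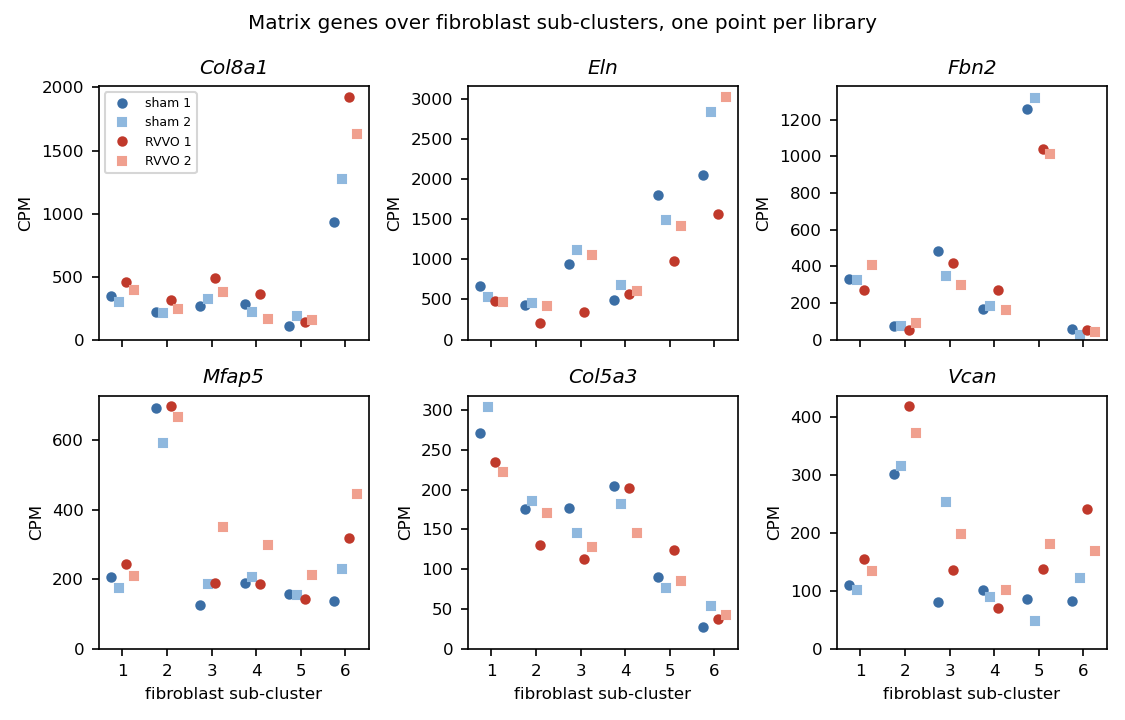
Level of 6 matrix genes (panels, CPM from 0) in the 6 fibroblast sub-clusters (x axis), with 1 point per library. Fbn2 stands up in sub-cluster 5, Mfap5 and Vcan in sub-cluster 2, Col5a3 in sub-cluster 1, and Col8a1 and Eln in sub-cluster 6.

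RVVO was compared with sham in each of 9 lineages on UMIs summed per library, with edgeR's quasi-likelihood test and Benjamini-Hochberg adjustment over all genes of the lineage. A gene was called at an adjusted p below 0.05, and log2 fold changes are RVVO minus sham. The value after ± beside an edgeR log2 fold change is an approximate standard error. It was derived as the size of the change over the square root of the test's F statistic. No member was called in any lineage. In fibroblasts 45 of 45 members were tested and 0 called, where 12 of 12915 genes (0.0929%) were called, among them the sex-linked Xist, Tsix, Ddx3y, Uty, Kdm5d and Eif2s3y. At an unadjusted p below 0.05, 7 fibroblast members were higher and 1 lower, and DESeq2 called 0. Across all genes tested, 1.97% were higher and 2.25% lower at that unadjusted threshold.

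The other 8 lineages also had 0 members called. The share of all genes called was 0.0712% in pericytes (40 members tested), 0.172% in smooth muscle cells (28), 0.0756% in endocardial cells (35) and 0.186% in other endothelial cells (43). It was 0.0955% in epicardial cells (39), 0.215% in glial cells (22), 0.0485% in CMs (44) and 0.122% in macrophages (29). At an unadjusted p below 0.05 the members higher and lower were 5 and 1 in pericytes (4.23% of all genes in either direction), 5 and 1 in smooth muscle cells (4.42%), 4 and 1 in endocardial cells (4.45%) and 8 and 1 in other endothelial cells (6.06%). They were 0 and 2 in epicardial cells (2.36%), 2 and 1 in glial cells (5.41%), 7 and 1 in CMs (5.67%) and 3 and 2 in macrophages (6.92%). DESeq2 called 1 member, P4ha1, in other endothelial cells and in CMs, and none in the other lineages.

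The members' median log2 fold change was above 0 in each lineage, by amounts that differed. It was 0.09 in pericytes, 0.10 in epicardial cells, 0.13 in smooth muscle cells, 0.15 in fibroblasts, 0.18 in endocardial cells, 0.19 in glial cells, 0.27 in other endothelial cells, 0.31 in macrophages and 0.35 in CMs, where the median of all genes tested was between -0.01 and 0.02. When nuclei were named individually it was -0.04 in pericytes, -0.15 in epicardial cells and -0.76 in glial cells. In fibroblasts 18 of the 45 members were higher in both RVVO libraries than in both sham libraries, against 17.4% of all genes, and 4 were lower, against 12.9%. The corresponding counts were 18 and 2 of 43 in other endothelial cells (all genes 22.3% and 11.3%), and 18 and 2 of 44 in CMs (23.3% and 12.8%). In epicardial cells they were 4 and 4 of 39 (13.9% and 16.3%). The same libraries supply every lineage, so these counts are not independent. Without RVVO 2 the median was -0.01 in fibroblasts, 0.00 in pericytes, -0.02 in smooth muscle cells, -0.03 in endocardial cells, -0.32 in epicardial cells, 0.17 in glial cells, 0.15 in other endothelial cells, 0.07 in macrophages and 0.08 in CMs.

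**Figure D3:**
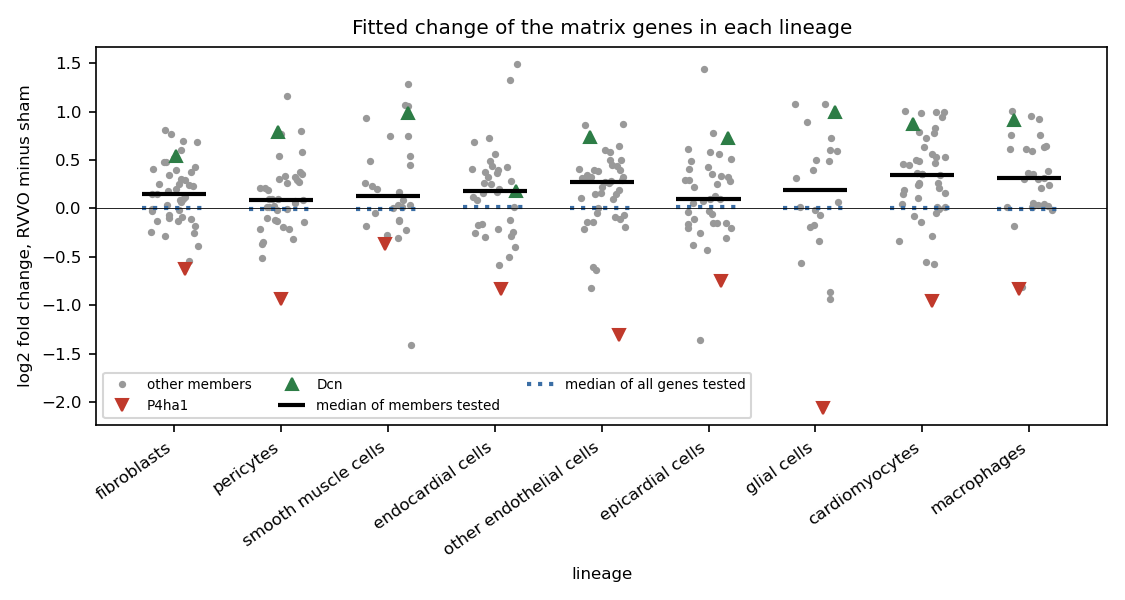
Fitted log2 fold change (y axis, RVVO minus sham) of every member tested in each of 9 lineages (x axis), with the median of the members (black bar) and of all genes tested (dotted bar). P4ha1 (red) lies below 0 in all 9 lineages and Dcn (green) above 0 in all 9, and neither was called in any.

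Of the 6 fibrillar collagens 4 were higher and 1 was lower without overlap in fibroblasts, with a median log2 fold change of 0.32 and none called. Among all genes tested there, 17.4% were higher and 12.9% lower without overlap. Col1a2 was at 328 and 366 CPM in sham and 421 and 570 CPM in RVVO, a log2 fold change of 0.48 ± 0.165 (edgeR adjusted p = 0.974). Col1a1 was at 211 and 201 CPM in sham, and at 214 and 426 CPM in RVVO. RVVO 1 was thus level with sham, and only RVVO 2 was high (0.60 ± 0.284, edgeR adjusted p = 1.0). Col3a1 had the same shape, at 968, 979, 1002 and 1649 CPM. Col5a2 was at 610, 480, 681 and 633 CPM. Col5a3 was at 207 and 216 CPM in sham and 186 and 175 CPM in RVVO.

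All 4 beaded-filament and network collagens were higher in both RVVO libraries in fibroblasts, against 17.4% of all genes, and none of them was called. Col6a3, a chain of the beaded filament, was at 248, 277, 300 and 409 CPM. It was also higher without overlap in other endothelial cells (14.3 and 16.3 against 37.3 and 20.4 CPM) and in CMs (4.86 and 4.73 against 11.9 and 7.92 CPM, log2 fold change 1.0 ± 0.280, edgeR adjusted p = 0.802). Col8a1 was at 281 and 278 CPM in sham fibroblasts and 433 and 334 CPM in RVVO fibroblasts. Of the 4 fibril-associated and related collagens none was apart between the groups in fibroblasts, and Col15a1 was at 419, 583, 474 and 471 CPM. In endocardial cells, Col15a1 was at 12.5 and 12.1 CPM in sham and 36.7 and 34.1 CPM in RVVO (1.49 ± 0.332, edgeR adjusted p = 0.405, 112 UMIs), a gene named here after its values were seen. Whether the 2 lineages differ in this was not tested.

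Promoters are shown for Col1a2 and Col3a1, the main fibril genes listed in the RefSeq promoter table (GRCm38.p6, 250 bases before to 50 bases after the start), which held 26 of the 45 members. Capitals mark CCAAT, the letters bound by NF-Y, in Col1a2, and TATAA in Col3a1, on either strand. Overlapping matches are marked together. In Col1a2 (chr6:4505368-4505667, plus strand) CCAAT matched 2 times. In Col3a1 (chr1:45311288-45311587, plus strand) TATAA matched 2 times and CCAAT 0 times.
Col1a2: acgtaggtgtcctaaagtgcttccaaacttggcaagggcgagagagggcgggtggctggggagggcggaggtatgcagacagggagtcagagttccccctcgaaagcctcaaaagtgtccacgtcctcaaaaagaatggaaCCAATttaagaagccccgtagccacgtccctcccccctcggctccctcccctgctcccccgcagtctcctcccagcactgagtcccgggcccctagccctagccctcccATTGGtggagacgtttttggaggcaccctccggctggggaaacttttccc
Col3a1: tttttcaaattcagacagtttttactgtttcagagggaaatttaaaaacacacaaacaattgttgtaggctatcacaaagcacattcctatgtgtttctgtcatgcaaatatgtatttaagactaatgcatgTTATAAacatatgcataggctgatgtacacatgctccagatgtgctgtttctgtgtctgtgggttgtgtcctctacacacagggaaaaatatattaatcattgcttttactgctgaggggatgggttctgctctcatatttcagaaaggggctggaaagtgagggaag
Of all 32851 promoters of this length, 37.4% held CCAAT and 24.9% held TATAA, so that both are common. Of the 26 members found there, 10 held CCAAT and 7 held TATAA. GC content was 61.0% for Col1a2 and 37.7% for Col3a1. A match describes letters in this window and not a used site.

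The proteoglycans, grouped with the hyaluronan synthase Has2, had the highest median change of any group in fibroblasts (0.52, 4 of 5 higher without overlap, against 17.4% of all genes). Dcn, decorin, was at 1075 and 1110 CPM in sham and 1388 and 1865 CPM in RVVO (1093 ± 25 against 1626 ± 337, mean ± SD). Its log2 fold change was 0.54 ± 0.166 (edgeR adjusted p = 0.822). Lum, lumican, a close relative that also binds fibrils, was at 102, 107, 138 and 234 CPM (0.81 ± 0.230, edgeR adjusted p = 0.737, the lowest of any member in fibroblasts). In GRCm38 Dcn (ENSMUSG00000019929) lies on the plus strand at chr10:97479609-97518143 and Lum next to it at chr10:97565128-97572703. Bgn, biglycan, was at 88.6, 95.3, 116 and 154 CPM and lies on the X chromosome. Sex and surgery coincide in this comparison, and their parts in the Bgn difference cannot be told apart. In RVVO 2 each of these 3 genes was highest. The lowest adjusted p of any member in any lineage was that of Lum in other endothelial cells, at 24.6 and 26.9 CPM in sham and 41.8 and 55.6 CPM in RVVO (0.86, edgeR adjusted p = 0.160).

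The difference in Dcn was not limited to fibroblast nuclei. In CMs it was at 77.0 and 82.2 CPM in sham and 105 and 198 CPM in RVVO, in pericytes at 196, 253, 324 and 468 CPM, and in macrophages at 201, 207, 306 and 466 CPM. The order of the 4 libraries was the same in each of these lineages as in fibroblasts. The ratio of Dcn in fibroblasts to Dcn in CMs was 14.0, 13.5, 13.2 and 9.40. For the summed fibroblast markers that ratio was 56.4, 50.3, 54.5 and 46, and for Has2 it was 127 to 247. When nuclei were thinned to 1000 UMIs, 57.9%, 57.8%, 65.6% and 75.4% of fibroblast nuclei had a Dcn UMI, against 8.12%, 10.1%, 11.9% and 19.8% of CM nuclei. The part of free RNA in the Dcn difference was not tested.

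**Figure D4:**
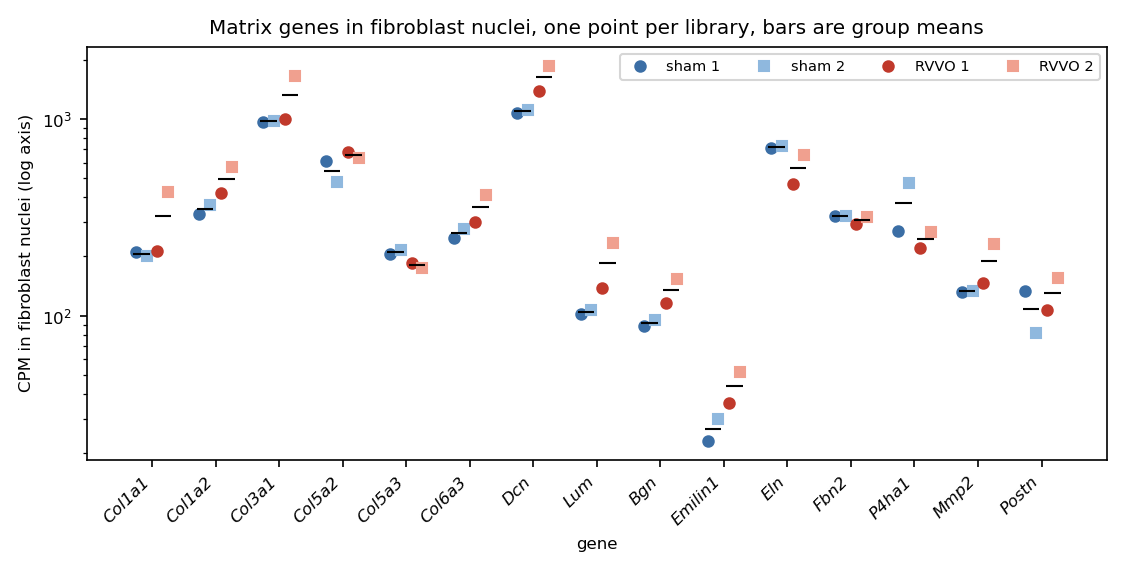
CPM (log axis) of 15 matrix genes in fibroblast nuclei, with 1 point per library and bars at the group means (n = 2 each). Lum, Dcn, Bgn and Emilin1 are higher in both RVVO points than in both sham points, Col1a1 and Col3a1 are high in RVVO 2 only, and P4ha1 and Eln are lower.

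Among the glycoproteins in fibroblasts only Sparc (438, 345, 473 and 568 CPM) was apart between the groups. Postn, at 134 and 82.1 against 107 and 156 CPM, overlapped, as did Fn1 (100, 107, 88.5 and 143 CPM), Sparcl1 (165, 111, 154 and 170 CPM) and Tnc (29.2, 17.3, 13 and 25.1 CPM). In macrophages Fn1 was higher in both RVVO libraries (38.5 and 49.9 against 70.8 and 102 CPM, 0.96 ± 0.275, edgeR adjusted p = 0.418). The summed fibroblast markers in these macrophage nuclei moved the same way, at 422 and 650 CPM in sham and 830 and 819 CPM in RVVO, mostly Abca9 (326, 530, 666 and 628 CPM), with Pdgfra at 5.92, 11.7, 17 and 20.1 CPM. Their part in the macrophage values of Fn1 and Dcn was not tested. Thbs1, a matricellular protein stored in platelets, was low in the named lineages. It reached 1305 CPM in an unnamed sub-cluster of 81 barcodes led by the platelet genes Pf4, Itga2b and Ppbp, of which 55 were from sham 1.

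Elastic fibre genes went in both directions in fibroblasts, and none was called. Eln was at 716 and 726 CPM in sham and 466 and 657 CPM in RVVO (-0.39 ± 0.174, edgeR adjusted p = 1.0). In the largest sub-cluster, led by Gpm6b, Eln was at 672 and 531 CPM in sham and 475 and 470 CPM in RVVO. It was also lower without overlap in those led by Pi16 (429, 453, 201 and 413 CPM) and Nkain2 (1802, 1496, 976 and 1416 CPM). The groups overlapped in the other sub-clusters. Among these, sub-cluster 3 had Eln at 943, 1115, 344 and 1055 CPM, so that the low value there was RVVO 1 alone. Emilin1, an elastic fibre glycoprotein, was at 23.1, 29.8, 35.9 and 51.9 CPM (0.69 ± 0.223, edgeR adjusted p = 0.910). Fbn1 (697, 606, 610 and 603 CPM) overlapped, and Fbn2 (321, 320, 294 and 319 CPM) was apart by less than the spread of the RVVO libraries.

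The crosslinking enzymes Lox (6.82, 3.50, 5.78 and 10.4 CPM, 108 UMIs) and Loxl1 overlapped between the groups in fibroblasts. Loxl2, of the same family, was at 42.8, 37.5, 44.1 and 46.1 CPM there (0.15 ± 0.165, edgeR adjusted p = 1.0), without overlap. It was also higher without overlap in smooth muscle, endocardial and epicardial cells, from 38, 59 and 189 UMIs, and was not called in any lineage. Mmp2, a gelatinase, was at 132, 133, 147 and 232 CPM, and in CMs at 4.93, 4.79, 6.0 and 14.2 CPM (0.99 ± 0.405, edgeR adjusted p = 0.873). Timp3, which overlaps Syn3 on the opposite strand, (228, 267, 231 and 232 CPM) and Ddr2 (299, 345, 306 and 307 CPM) overlapped.

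P4ha1 (ENSMUSG00000019916, GRCm38 chr10:59323296-59373304, plus strand) was lower in value in more lineages than not. It encodes the catalytic subunit of collagen prolyl 4-hydroxylase, is made in most cell types and is known to be induced by hypoxia. It was also the least fibroblast-bound member, since its level in fibroblasts was 1.61 to 2.36 times that in CMs. In other endothelial cells P4ha1 was at 324 and 665 CPM in sham and 226 and 186 CPM in RVVO (-1.31 ± 0.297, edgeR adjusted p = 0.229). In CMs it was at 167 and 242 CPM against 105 and 113 CPM (-0.96 ± 0.194, edgeR adjusted p = 0.761).

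Fibroblasts had P4ha1 at 269 and 474 CPM against 221 and 267 CPM (-0.63 ± 0.242, edgeR adjusted p = 1.0), where RVVO 2 lay only just below sham 1. Pericytes (336, 685, 253 and 284 CPM), endocardial cells (355, 541, 234 and 279 CPM), epicardial cells (300, 340, 154 and 222 CPM) and macrophages (332, 359, 205 and 188 CPM) were also lower without overlap. So were glial cells (149, 344, 103 and 12.8 CPM, 90 UMIs). Smooth muscle cells overlapped, at 162, 320, 227 and 158 CPM. In all, P4ha1 was lower without overlap in 8 of 9 lineages tested and had an unadjusted p below 0.05 in the same number, while 11.3% to 17.3% of all genes tested were lower without overlap, depending on the lineage.

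The high values were those of sham 2, above sham 1 in every lineage. In DESeq2 P4ha1 was called in other endothelial cells (adjusted p = 3.42e-04) and in CMs (adjusted p = 0.0147). Without sham 1 edgeR called it in pericytes (-1.34), endocardial cells (-1.09), other endothelial cells (-1.72) and glial cells (-2.57). Without RVVO 1 P4ha1 had a log2 fold change of -4.19 in glial cells, which rests on RVVO 2 alone, with 32 glial nuclei and 78023 UMIs of all genes. Without sham 2 it was called in none, and in smooth muscle cells the difference was 0.20.

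**Figure D5:**
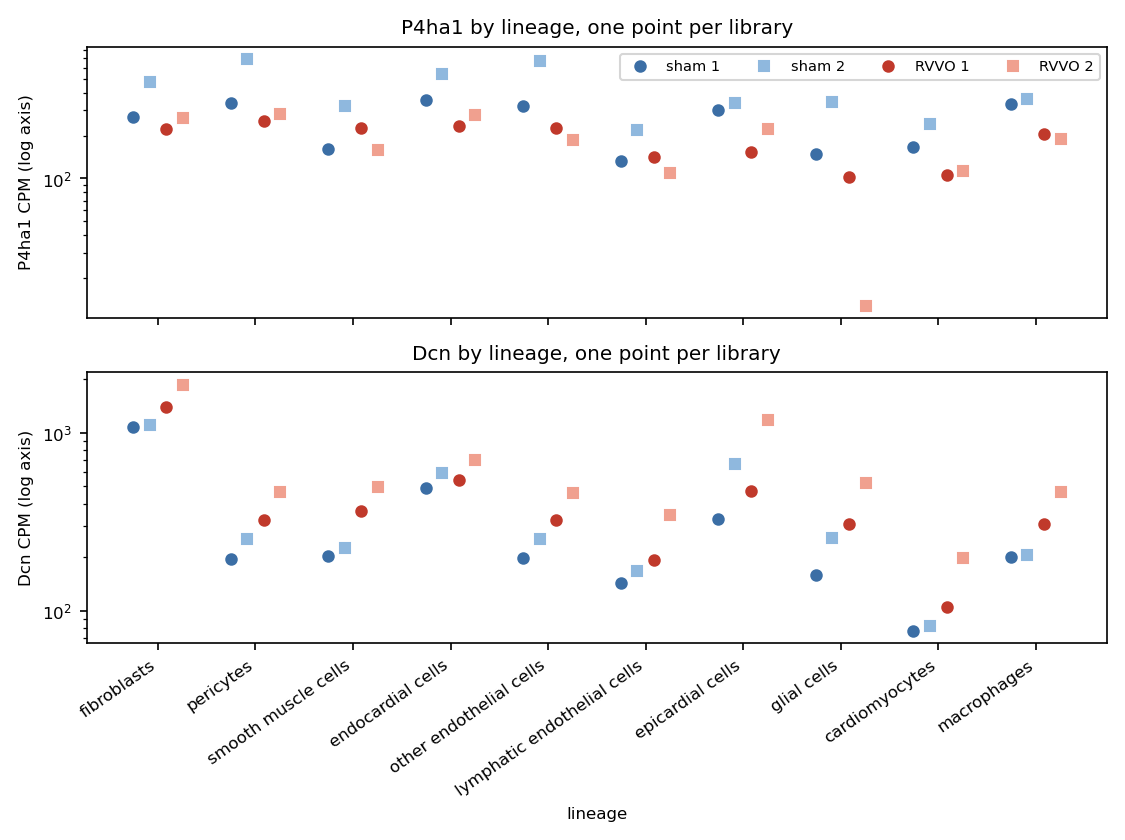
P4ha1 (top) and Dcn (bottom) in CPM (log axes) in the 10 lineages, with 1 point per library. The 2 RVVO points of P4ha1 lie below both sham points in 8 of the 9 lineages tested, and those of Dcn above both sham points in 7 of 9. Depending on the lineage, 11.3% to 17.3% of all genes tested were lower and 13.9% to 23.3% higher without overlap.

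The promoter of P4ha1 (GRCm38.p6, chr10:59323046-59323345, plus strand) is shown because P4ha1 differed in the most lineages. Capitals mark ACGTG and GCGTG, the core letters bound by hypoxia-inducible factors, on either strand.
P4ha1: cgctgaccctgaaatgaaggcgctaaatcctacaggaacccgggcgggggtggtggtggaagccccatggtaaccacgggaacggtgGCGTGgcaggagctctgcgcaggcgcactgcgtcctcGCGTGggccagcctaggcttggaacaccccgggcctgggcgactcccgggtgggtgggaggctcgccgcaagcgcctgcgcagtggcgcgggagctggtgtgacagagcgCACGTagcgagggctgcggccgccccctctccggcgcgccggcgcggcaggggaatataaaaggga
The window held ACGTG 1 time and GCGTG 2 times. Of all promoters of this length 19.6% held ACGTG and 32.4% held GCGTG, and among the 26 members in the table the counts were 5 and 11. These letters are common, and nothing on their use was measured.

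A wider list of 55 other collagen, processing and matrix genes was also chosen with results of these data known. In fibroblasts 53 of them were tested, with 0 called in edgeR and a median log2 fold change of 0.14. In either direction 10 had an unadjusted p below 0.05 in edgeR, against 4.23% of all genes tested there. Of 14 fibroblast activation genes 12 were tested, 0 were called and 0 had an unadjusted p below 0.05, with a median of -0.13 where all genes had 0.00. The difference between these lists was not tested.

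The other named changes, by the fixed rule, were of the same kind, and none was called. Col3a1 in smooth muscle cells was at 193 and 240 against 310 and 429 CPM, and Dcn there at 204, 226, 364 and 498 CPM (0.99 ± 0.271, edgeR adjusted p = 0.267). In endocardial cells Lum was at 61.1, 50.9, 91.8 and 97.0 CPM. Bgn in epicardial cells was at 41.5, 63.0, 83.3 and 81.9 CPM. Sparc and Col3a1 were the changes named in glial cells, where the RVVO libraries held only 25 and 32 nuclei (Col3a1 1177, 1001, 1273 and 1807 CPM). Macrophage markers in the glial nuclei summed to 71.3 and 92.1 CPM in sham and 347 and 564 CPM in RVVO, and their part in the glial values was not tested.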

How the data were processed

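Nuclei from flash-frozen RV were profiled by droplet 3′ single-nucleus RNA-seq in 4 libraries (2 sham, 2 RVVO). The authors deposited UMI counts per gene and barcode. The labels' processing notes name GRCm38, Cell Ranger 3.0.1, STAR and Seurat 3.0.2, while the matrix headers name Cell Ranger 5.0.0. The annotation and the use of introns and strand are stated nowhere in these sources, so reads of overlapping genes on opposite strands cannot be told apart. Total UMIs were 51010039 to 64739206 per library.

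Barcodes with at least 200 genes and at most 10% mitochondrial UMIs were kept, and 5885 barcodes were removed as doublets. Nuclei were clustered (scanpy 1.11.5) on 2000 variable genes without the 45 members, with 30 components, 15 neighbours and resolution 1, then sub-clustered at 0.5. Names came from listed markers, and the naming thresholds were set after the clusters were seen. CPM are a gene's UMIs over all UMIs of the lineage in that library, on the usual CPM scale. Lineages with at least 25 nuclei in every library were tested on summed counts with edgeR 4.0.16 (TMM, filter on low counts, quasi-likelihood test), with DESeq2 1.42.0 as an alternative. The test was checked on simulated data.

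The members and gene lists were chosen with earlier results of these data known. Members named with values were those called, up to 6 largest rises and 6 largest falls without overlap in fibroblasts, the 2 largest changes in each other lineage, the 3 highest ratios to other nuclei per lineage (each with at least 200 UMIs), and a set fixed by role. Other genes and the sub-clusters were named after their values were seen. The replicate numbers are not stated to mark shared animals or batches. The p-values measure only the spread between these libraries.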

Additional observations from a re-analysis of the deposited data

Results flagged for a closer look

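Some genes moved in opposite directions in 2 lineages, with every library of each lineage on its own side, and the difference itself was not tested. Col5a3 had a log2 fold change of -0.25 in fibroblasts, against 0.08 in pericytes and 0.26 in other endothelial cells. Eln had -0.39 in fibroblasts and 0.35 in other endothelial cells. The endothelial sub-clusters were mixed differently in the 2 groups. The largest, low in Eln, had 1185 and 839 nuclei in sham and 49 and 318 in RVVO. Within a sub-cluster of 544 nuclei Eln overlapped, at 534, 736, 571 and 482 CPM. Within another of 492 nuclei it was at 1906 and 2317 CPM in sham and 2331 and 2657 CPM in RVVO. The part of the mixture in the Eln difference was not tested. Of the type VI collagen chains, Col6a1 was at 0.25 in fibroblasts and -0.28 in endocardial cells, and Col6a2 at 0.29 and -0.25. The remaining chain, Col6a3, did not turn, at 0.33 in endocardial cells, where its groups overlapped. None of these changes was called, and all lineages come from the same 4 libraries.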

How the results depend on the processing

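edgeR called 0 members in each of 9 lineages. Without the filter on low counts it called 4 in fibroblasts (P4ha1, Dcn, Lum and Col1a1), 3 in pericytes, 2 in endocardial cells, 2 in other endothelial cells and 1 in macrophages. DESeq2 called 1 in other endothelial cells and 1 in CMs, both P4ha1. Same-numbered libraries deviated together in epicardial cells only (correlation 0.27, otherwise -0.05 to 0.03). With the replicate block 1 member was called in glial cells (P4ha1), and no other member call changed. Over all genes the block gave 34 calls against 24 in other endothelial cells and 11 against 7 in pericytes, and left CMs at 7. Leaving out 1 library gave 0 to 1 in pericytes (P4ha1 without sham 1, Dcn without sham 2), smooth muscle cells (Dcn without RVVO 1), other endothelial cells (P4ha1 without sham 1, Col6a3 without RVVO 2), epicardial cells (Mfap5 without RVVO 1) and glial cells (P4ha1 without sham 1 or RVVO 1), and 0 to 2 in endocardial cells (Col5a2 and P4ha1 without sham 1). The fibroblast share difference ranged from 0.452 to 5.44 points. When nuclei were named individually, Bgn in epicardial cells was -0.16, and in glial cells Sparc was -0.79 and Col3a1 -0.60. With 1 library left out the sign turned in fibroblasts for Col15a1 (-0.30 to 0.12, without sham 2), Fn1 (-0.23 to 0.40, without RVVO 2), Postn (-0.09 to 0.68, without sham 2 or RVVO 2), Sparcl1 (-0.08 to 0.55, without sham 2), Tnc (-0.80 to 0.15, without sham 1 or RVVO 1) and Fbn1 (-0.25 to 0.01, without sham 1), and for P4ha1 in smooth muscle cells (-0.75 to 0.20, without sham 2). The causes were not tested. Over all genes, calls in fibroblasts were 12, against 46 in DESeq2, 204 without the filter and 6 to 96 with 1 library left out. In the same order the counts were 7, 13, 101 and 5 to 85 in pericytes, 9, 6, 22 and 9 to 27 in smooth muscle cells, 7, 17, 125 and 24 to 113 in endocardial cells, 24, 105, 170 and 22 to 93 in other endothelial cells. They were 9, 12, 32 and 6 to 46 in epicardial cells, 6, 2, 0 and 0 to 12 in glial cells, 7, 67, 19 and 7 to 19 in CMs, 11, 16, 136 and 24 to 46 in macrophages.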
